A study of Mus musculus with 10 samples.

Results

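Major urinary proteins (Mups) are small secreted lipocalins, proteins with a barrel-shaped pocket that holds a small hydrophobic ligand. In the male mouse the liver makes most of them, and the kidney passes them into the urine, where they bind volatile pheromones and release them slowly. Their liver expression is known to depend on growth hormone pulses and on androgen and to be higher in males. The genes lie in 1 cluster on chromosome 4, in which a central group of nearly identical copies is flanked by older, more diverged genes.

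Described here are the 6 diverged genes Mup3, Mup4, Mup5, Mup6, Mup20 and Mup21, out of 21 Mup rows and 24016 transcripts in the table, with the other 15 Mup rows, called central, as the reference. The family was selected on its values in these same mice, after the summed Mup signal had been seen to be lower in the AdVEGF group. The differences between the groups are therefore given for all Mup rows as a description, and counts of Mup rows called restate that choice and support nothing. Liver RNA was sequenced from 10 male C57BL/6 mice aged 8 to 12 weeks, in 2 groups of 5. The AdVEGF group had received, by tail vein injection, an adenovirus of serotype 5 that expresses VEGF-A165 (a vascular growth factor) from the CMV promoter, and the AdCMV group an empty adenovirus with this promoter and no transgene. All 10 mice thus carried an adenovirus, the CMV promoter is not restricted to 1 cell type, and the liver was taken on day 6. Total RNA from whole liver was depleted of ribosomal RNA before sequencing. In bulk tissue, fewer cells of a type and less RNA per cell cannot be told apart.

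Mapped tags numbered 5758960 to 13494000 per AdCMV library and 5596560 to 8133950 per AdVEGF library. For a 1 kb transcript, 3 reads thus gave 0.222 to 0.521 and 0.369 to 0.536 RPKM, respectively, RPKM being the reads per kilobase of a transcript relative to all mapped tags. Vegfa ranged between 13.8 and 23.2 RPKM with AdCMV and between 28.3 and 39.4 RPKM with AdVEGF, without overlap. All 21 Mup rows together took 18.0% to 50.5% of gene reads per AdCMV mouse and 7.84% to 28.6% per AdVEGF mouse. Reads summed over all transcripts exceeded the mapped tags by 2.31% to 13.9%, so part of the reads were counted on more than 1 row, and the shares and sums of Mup rows include such reads. RPKM being a proportion of the library, the other genes move up on this scale where the Mup rows take less. Across 13933 genes tested, the median log2 fold change was 0.38. Median-ratio scaling, which sets the typical gene equal between libraries, brought it to -0.01.

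The members differ from the central copies in sequence, which decides how far their reads can be told apart. Shown first is a stretch of 60 bases of the spliced coding sequence, bases 155 to 214 from the start codon, of Mup2 (the most abundant central row) and of the 6 members, from the GENCODE annotation of GRCm38. Capitals mark bases that differ from Mup2. The stretch lies in the coding exons of genes on chromosome 4. It was picked because the members together differ most from Mup2 there, so it overstates their divergence over the whole coding sequence.
Mup2: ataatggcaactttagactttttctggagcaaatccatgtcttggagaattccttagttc
Mup3: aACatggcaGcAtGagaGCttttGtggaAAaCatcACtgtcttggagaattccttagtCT
Mup21: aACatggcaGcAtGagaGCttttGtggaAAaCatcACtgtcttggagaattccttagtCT
Mup4: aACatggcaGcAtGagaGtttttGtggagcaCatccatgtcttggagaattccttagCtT
Mup5: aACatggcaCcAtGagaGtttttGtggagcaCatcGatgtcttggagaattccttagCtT
Mup6: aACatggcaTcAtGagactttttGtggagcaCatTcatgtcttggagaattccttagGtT
Mup20: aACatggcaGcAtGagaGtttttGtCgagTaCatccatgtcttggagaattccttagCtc
Within these 60 bases the members differed from Mup2 at 10 to 15 positions, and Mup15, another central gene, at 0. At 6 positions all members shared a base that Mup2 lacks. Mup3 and Mup21 were identical over the stretch.

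Over the whole coding sequence the 15 pairs of members were 83.6% to 94.7% identical, and the 90 pairs of a member and a central gene 83.4% to 91.3%. The 105 pairs of central genes were 98.3% to 99.8% identical. Mup3 and Mup21 formed the closest pair of members, with 94.7%. Mup4, Mup5 and Mup6 were 90.0% to 92.5% identical to each other, and Mup20, which encodes darcin, the male pheromone protein, was closest to Mup5 among the members, with 91.2%. Of all windows of 36 bases along the member transcripts, between 7.52% (Mup6) and 29.2% (Mup4) occurred in another Mup transcript, but at most 9.21% (Mup5) in a central one. For Mup21 this last share was 0%. The central transcripts shared 83.9% to 100% of their windows with another Mup transcript, and how reads of such copies were assigned was not tested. How reads common to Mup3 and Mup21, or to Mup4 and Mup5, were assigned was not tested.

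**Figure D1:**
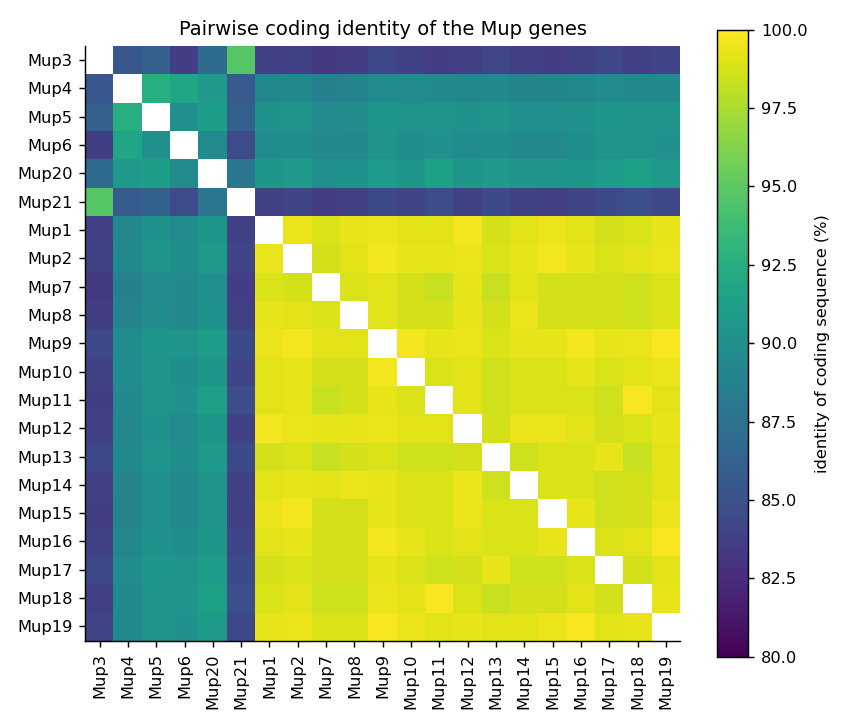
Pairwise identity of the coding sequences (colour, in percent) of the 6 divergent genes, listed first, and the 15 central genes. The central block lies between 98.3% and 99.8%, and the divergent genes stand at 83.4% to 91.3% from it.

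In the table, which uses build mm9, the members lie at the outer ends of the cluster and the central rows between them. Mup4 (chr4:59969678-59973537) and Mup6 (chr4:60016421-60019086) stand at one end, and Mup5 (chr4:61492353-61496214), Mup20 (chr4:61711269-61715151), Mup3 (chr4:61744511-61748346) and Mup21 (chr4:61808866-61811875) at the other. Mup6 is the only member on the plus strand. None of the 6 rows overlaps another row of the table, whereas the Mup2 row overlaps 3 rows, among them those of Mup10 and Mup11.

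RefSeq promoters on GRCm38.p6 were available for Mup3, Mup4, Mup6 and Mup21. The 100 bases before the annotated start are printed with those of Mup2, because the groups of members also show here. Capitals mark the TATA box TATATAA, searched on both strands. The windows are chr4:60139857-60139956 (minus strand), chr4:59960668-59960767 (minus), chr4:60003381-60003480 (plus), chr4:62087318-62087417 (minus) and chr4:62150842-62150941 (minus), in the order of the lines.
Mup2: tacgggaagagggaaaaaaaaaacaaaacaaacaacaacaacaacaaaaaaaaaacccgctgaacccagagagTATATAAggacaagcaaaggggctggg
Mup4: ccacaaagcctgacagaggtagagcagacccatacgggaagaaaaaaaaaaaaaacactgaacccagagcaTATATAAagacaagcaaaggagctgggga
Mup6: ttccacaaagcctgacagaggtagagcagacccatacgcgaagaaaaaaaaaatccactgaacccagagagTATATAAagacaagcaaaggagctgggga
Mup3: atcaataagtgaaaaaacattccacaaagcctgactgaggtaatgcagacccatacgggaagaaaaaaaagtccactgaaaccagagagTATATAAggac
Mup21: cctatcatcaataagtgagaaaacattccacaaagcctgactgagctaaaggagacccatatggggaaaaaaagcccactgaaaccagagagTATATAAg
TATATAA was found in the 250 bases before the start in 4 of 4 member promoters, in 11 of 14 Mup promoters and in 3.04% of 32851 promoters of all genes. In Mup4 and Mup6 it began 29 bases before the annotated start, in Mup3 11 and in Mup21 8, so the annotated starts of the latter pair lie closer to the box. The longest run of A bases was 14 bases long in Mup4, 10 in Mup6, 8 in Mup3 and 7 in Mup21. Matches to TTCNNNGAA (STAT5) and TTGCNNAA (C/EBP), and to the HNF1 motif, were found in 0 of the 14 Mup promoters within this window, against 7.02%, 9.56% and 0.00913% of all promoters. That says only that these letters are not in the window.

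The level of each member was read first, apart from any comparison of the groups. In every one of the 10 mice the order by RPKM was Mup20, Mup3, Mup5, Mup4, Mup21 and Mup6. The closest neighbours were Mup5 and Mup4, whose ratio was 1.08 in the nearest mouse and 2.82 in the farthest. Their ranges overlapped within both groups, while the mouse-by-mouse order did not change. Mup20 stood at 1.33 to 3.74 times Mup3, and Mup21 at 4.51 to 42.5 times Mup6. Among the 21 rows Mup20 ranked 15th by mean RPKM, above the central rows' lowest member Mup9 (16th, 5314 RPKM), and the other members ranked 17th to 21st. The most abundant central row, Mup2, averaged 71359 RPKM. Its row overlaps 3 others, and the part of reads also counted there was not tested.

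Mup20 was the most abundant member, with 9462, 13424, 10298, 7929 and 7018 RPKM in AdCMV mice 1 to 5 and 9737, 6825, 3422, 2873 and 6887 RPKM in AdVEGF mice 1 to 5. In all, 4 of the 5 AdVEGF mice lay below every AdCMV mouse, and AdVEGF mouse 1 lay inside the AdCMV range. The log2 fold change was -0.80 (standard error 0.35).

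Mup3 measured 4205, 4029, 2754, 3897 and 3406 RPKM in AdCMV mice 1 to 5 and 3449, 3576, 2581, 1819 and 3731 RPKM in AdVEGF mice 1 to 5. The groups overlapped widely, with 3 of the 5 AdVEGF mice inside the AdCMV range. Its log2 fold change, -0.30 (standard error 0.27), was the one nearest to 0 of the 6.

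Mup21, the closest relative of Mup3 in sequence, was about an order of magnitude less abundant. Its values were 324, 213, 163, 298 and 394 RPKM in AdCMV mice 1 to 5, and 249, 177, 114, 52.2 and 338 RPKM in AdVEGF mice 1 to 5. AdVEGF mice 3 and 4 lay below all AdCMV mice and the others within their range. Its log2 fold change was -0.78 (standard error 0.40).

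Mup5 and Mup4 are known for expression in salivary and lacrimal glands besides the liver. Mup5 measured 1548, 1094, 1420, 1404 and 1605 RPKM in AdCMV mice 1 to 5, and 930, 1418, 490, 316 and 1476 RPKM in AdVEGF mice 1 to 5. Here the AdVEGF group fell apart, with mice 2 and 5 at AdCMV levels and mice 1, 3 and 4 below all AdCMV mice, and the log2 fold change was -0.83 (standard error 0.36). Mup4 measured 902, 821, 1197, 635 and 569 RPKM in AdCMV mice 1 to 5, and 583, 1308, 431, 247 and 746 RPKM in AdVEGF mice 1 to 5. The highest Mup4 value of all 10 mice was in an AdVEGF mouse, mouse 2, and the lowest in AdVEGF mouse 4. Its log2 fold change was -0.48 (standard error 0.36). Of the gland markers Smr3a, Prol1 and Bpifa2, 3 of 3 were at 0 in all mice, and Amy1, which the liver also expresses, gave the list's whole summed level of 50.8 to 70.1 RPKM with AdCMV and 47.0 to 66.4 RPKM with AdVEGF. Of the 4 exocrine pancreas markers, Cpa1, Prss2 and Pnlip were at 0 in all mice, and Cela1 measured 15.1 ± 4.37 RPKM with AdCMV and 11.5 ± 4.05 RPKM with AdVEGF (SD, n = 5 each).

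Mup6 was the least abundant, resting on 46 to 152 reads per AdCMV mouse and 8 to 128 reads per AdVEGF mouse. It measured 23.3, 15.4, 36.2, 11.5 and 15.0 RPKM in AdCMV mice 1 to 5, and 6.35, 20.2, 2.68, 3.46 and 35.7 RPKM in AdVEGF mice 1 to 5. The AdVEGF values spread 13.3-fold, with mice 1, 3 and 4 below all AdCMV mice and mouse 5 close to the highest AdCMV value. The log2 fold change was -1.13 with the widest error of the members (standard error 0.55).

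**Figure D2:**
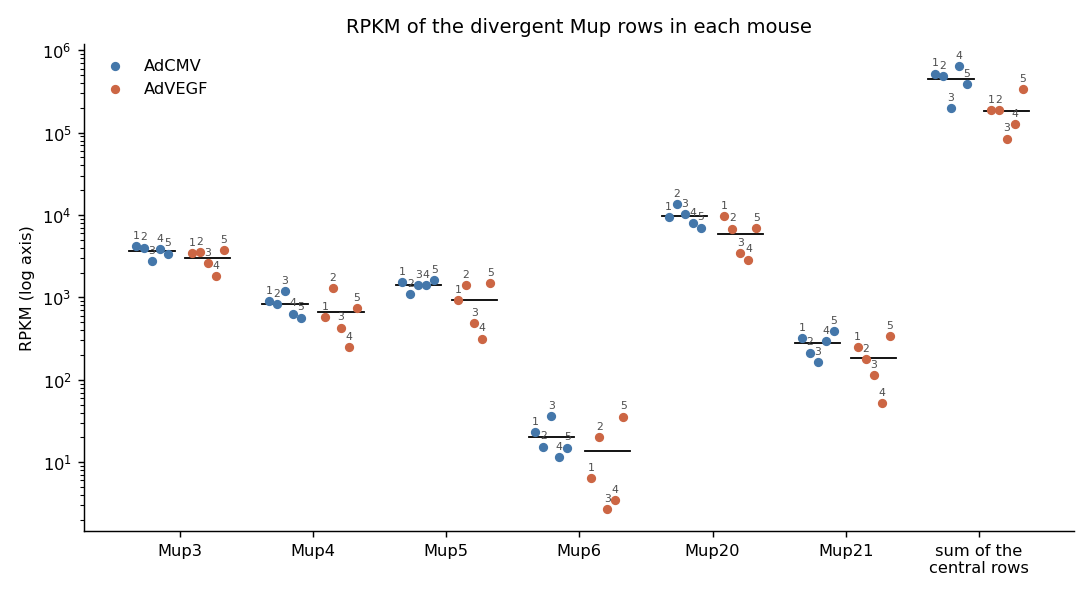
RPKM (log axis) of the 6 divergent rows and of the summed 15 central rows in each mouse, numbered by replicate, with AdCMV in blue, AdVEGF in orange and group means as lines. AdVEGF mouse 4 is the lowest of all 10 mice for Mup3, Mup4, Mup5, Mup20 and Mup21, while AdVEGF mouse 5 stays within the AdCMV range for 5 of the 6 rows, Mup20 excepted, at 6887 RPKM.

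All 6 members passed the filter on low values. With limma, a test chosen here, 0 of 6 were called lower or higher. The thresholds were those of the study's methods (an adjusted p under 0.05 and an absolute log2 fold change over 1). Over all genes tested, 1.54% were called lower and 13% higher. Without adjustment 2 of the 6 passed p under 0.05, and voom on the recovered reads also called 0. Nothing is read from these counts, because the same contrast chose the family. The log2 fold changes of the 6 ranged from -1.13 to -0.30 with a median of -0.79, 1.17 below the median of all genes tested. With median-ratio scaling they were -0.71 (Mup3), -0.88 (Mup4), -1.24 (Mup5), -1.52 (Mup6), -1.21 (Mup20) and -1.18 (Mup21), again with 0 calls. In 0 of the 6 were the groups free of overlap, as against all AdVEGF mice below all AdCMV mice in 1.29% of genes tested.

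For the 15 central rows the log2 fold changes ranged from -1.48 to -1.17 with a median of -1.32. Each was lower than that of every member, of which Mup6 (-1.13) came nearest to a central row, Mup10 (-1.17). All 15 passed the thresholds, and in each the groups overlapped. Since these rows make up most of the sum that chose the family, nothing is read from this count either. It also rested on a margin: 5 of 15 were called with median-ratio scaling and 0 of 15 without the filter on low values, and the count was 2 without AdCMV mouse 1, 4 without AdCMV mouse 2, 10 without AdVEGF mouse 4 and 0 without AdCMV mouse 4 or without AdVEGF mouse 3. Mup2 measured 101585 ± 40189 RPKM in the AdCMV mice and 41133 ± 19935 RPKM in the AdVEGF mice (mean ± SD, n = 5 each). In the least abundant central row, Mup9, the values were 7222 ± 1522 and 3406 ± 2273 RPKM.

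**Figure D3:**
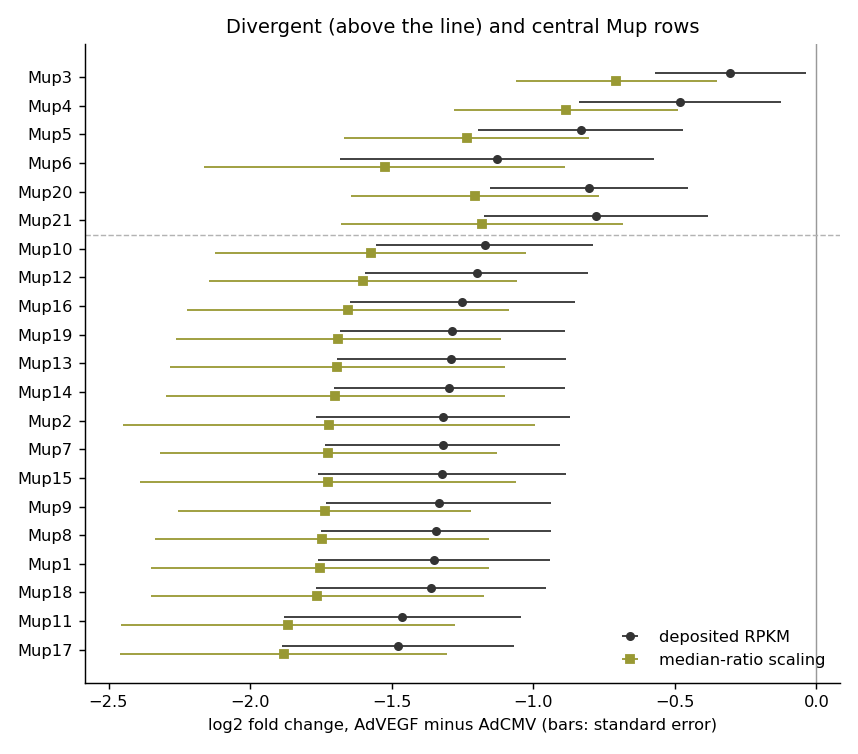
Log2 fold change of AdVEGF against AdCMV with its standard error for the 6 divergent rows (above the dashed line) and the 15 central rows, for deposited RPKM (circles) and after median-ratio scaling (squares). The divergent rows lie at -1.13 to -0.30 and the central rows at -1.48 to -1.17 on the deposited scale.

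A share within the family does not depend on the scaling between libraries, so each member was set against the summed RPKM of all 21 rows. Together the 6 members made up 3.96% ± 2.04 of the sum in the AdCMV group and 5.90% ± 1.86 in the AdVEGF group (mean ± SD, n = 5 each). The ranges, 2.16% to 7.44% and 3.80% to 7.70%, overlapped in most mice, and AdCMV mouse 3 alone had a share (7.44%) outside the 2.16% to 3.91% of its group.

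Mup3 showed the clearest shift in share. It made up 0.782%, 0.803%, 1.29%, 0.594% and 0.854% of the sum in AdCMV mice 1 to 5 and 1.71%, 1.76%, 2.82%, 1.38% and 1.07% in AdVEGF mice 1 to 5. Thus 4 of the 5 AdVEGF mice lay above every AdCMV mouse, and the mean share was 2.02 times that of the AdCMV group. Mup20 made up 2.45% ± 1.43 (SD, n = 5) and 3.22% ± 1.17 (SD, n = 5), with all 5 AdVEGF mice inside the AdCMV range of 1.21% to 4.83%. The same held for Mup6, which made up at most 0.0170% of the sum. In both the overlap rested in part on AdCMV mouse 3, without which 3 of 5 AdVEGF mice lay above the AdCMV range for Mup20 (1.21% to 2.68%) and 2 of 5 for Mup6 (0.00176% to 0.00434%). Mup4 (0.226% ± 0.189 and 0.361% ± 0.193), Mup5 (0.358% ± 0.188 and 0.472% ± 0.167) and Mup21 (0.0646% ± 0.0233 and 0.0945% ± 0.0347) lay in between, each with AdVEGF mice on both sides of the AdCMV mean. Without AdCMV mouse 3 the AdCMV means were 0.143% for Mup4 and 0.00323% for Mup6, both more than 1.5 times lower than with it, and all 5 AdVEGF mice lay above the remaining AdCMV mice for Mup4, as they did for Mup3.

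**Figure D4:**
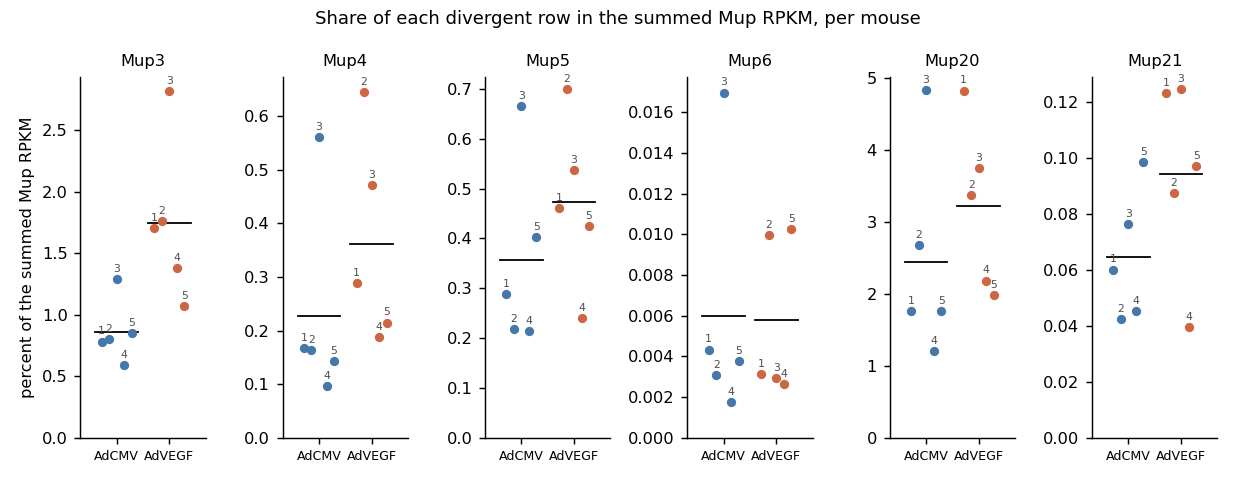
Share of each divergent row in the summed Mup RPKM (percent, axes from 0, a different scale for each gene) per mouse, numbered by replicate, with group means as lines. For Mup3, 4 of 5 AdVEGF mice lie above all AdCMV mice, and AdCMV mouse 3 is the highest of its group for all rows but Mup21.

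AdCMV mouse 3 stood apart from the rest of its group in how the family was made up. Its summed central RPKM was 0.394 times the median of the other AdCMV mice, and Mup3 (0.695 times) and Mup21 (0.525 times) were also lower. Mup5 (0.962 times) and Mup20 (1.18 times) were near the others, and Mup4 (1.64 times) and Mup6 (2.38 times) were higher. With median-ratio scaling the central rows stood at 0.254 times, Mup21 at 0.329, Mup3 at 0.433, Mup5 at 0.645, Mup20 at 0.698, Mup4 at 0.986 and Mup6 at 1.61 times the others, so that Mup4 and Mup20 were above the others on the deposited scale only. In the same mouse the female-biased Cyp2a4 measured 557 RPKM against 26.3 to 92.3 RPKM in the other AdCMV mice, Cyp2b9 2.04 against 0.398 to 0.794 RPKM, and Cyp3a44 58.1 against 19.1 to 39.2 RPKM. The part of this in the Mup values was not tested.

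AdVEGF mouse 4 had the lowest value of all 10 mice in 5 of the 6 members, between 0.245 (Mup21) and 0.518 (Mup3) times the median of the other AdVEGF mice, whereas its summed central RPKM was 0.671 times theirs. It also had by far the highest levels of acute-phase lipocalins, 1599 RPKM of Lcn2, which binds bacterial siderophores, against 9.06 to 36.8 RPKM in the other AdVEGF mice, and 1421 RPKM of Orm2 against 110 to 286 RPKM. Whether the 2 are linked was not tested. Without this mouse the log2 fold changes of the members ranged from -0.81 (Mup6) to -0.13 (Mup3), and Mup4 (-0.18) and Mup21 (-0.39) came out closer to 0 than with all mice. With AdCMV mouse 3 also left out, that of Mup4 was -0.03.

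AdVEGF mouse 5 lay at the other end. Its summed central RPKM was 2.13 times the median of the other AdVEGF mice, and its Mup6 7.28 times, Mup21 2.32 times and Mup5 2.08 times theirs. Without it, 3 of the 6 members (Mup5, Mup6 and Mup21) met the thresholds that 0 met with all mice.

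Whether the members varied together with the central rows from mouse to mouse within a group is a question that the choice of the family did not use. Deviations of log2(RPKM + 0.1) from the group means were correlated with those of the summed central rows over the 10 mice, with exact permutation within the groups (two-sided, 14400 permutations) and adjustment over the 6 members. Pearson's r was 0.76 for Mup3 (Spearman's rho 0.80), with an exact permutation p = 0.0199 and an adjusted p = 0.120. For Mup21 it was 0.69 (rho 0.55, exact permutation p = 0.0467, adjusted p = 0.140), and for Mup5 0.57 (rho 0.30, exact permutation p = 0.128, adjusted p = 0.256). Mup20 (r = 0.44, rho 0.20), Mup6 (r = 0.43, rho 0.20) and Mup4 (r = 0.20, rho 0.25) had adjusted p of 0.342, 0.342 and 0.651 in the exact permutation test. With all mice none passed after adjustment, by r or by rho, for which the lowest adjusted p was 0.115. Leaving out single mice, Mup3 alone passed, by r without AdVEGF mouse 3 (adjusted p = 0.0229) or AdVEGF mouse 4 (r = 0.93, adjusted p = 0.0188) and by rho without AdCMV mouse 4 (adjusted p = 0.0333), all by exact permutation. Without AdCMV mice 1 and 4, the 2 farthest from the median of the central sum, r was 0.75, 0.28, 0.61, 0.58, 0.58 and 0.70 for Mup3, Mup4, Mup5, Mup6, Mup20 and Mup21.

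The scaling changed this reading. In deposited RPKM a mouse with more central Mup RNA gives every other gene a smaller share. After median-ratio scaling r was 0.91 for Mup3 (adjusted p = 0.00542), 0.79 for Mup21 (adjusted p = 0.0201) and 0.72 for Mup5 (adjusted p = 0.0201), and 0.67 (adjusted p = 0.0578), 0.51 (0.150) and 0.44 (0.202) for Mup20, Mup6 and Mup4, all by exact permutation. So 3 of 6 passed on that scale and 0 of 6 on the deposited one, each r being tested against 0. For 12034 genes outside the family, the median r with the central rows was -0.59 in deposited RPKM and -0.000804 after median-ratio scaling, which describes where the typical gene lies on each scale. On the deposited scale a test against 0 thus does not compare a member with the typical gene. Of these genes, 0.0415% had a higher r than Mup3 and 1.83% than Mup4 in deposited RPKM, the extremes of the 6 members. After median-ratio scaling the extremes were 0.108% (Mup3) and 11.2% (Mup4). The scaling multiplies both values of a mouse by 1 number, whose log2 itself had an r of 0.84 with the central rows in deposited RPKM, and its part in the r of a single member was not tested. Mup4 and Mup6, the pair at one end of the cluster, had the smallest r on the median-ratio scale. Without AdCMV mouse 3 the r of Mup6 on the deposited scale was 0.82 and that of Mup4 0.53.

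**Figure D5:**
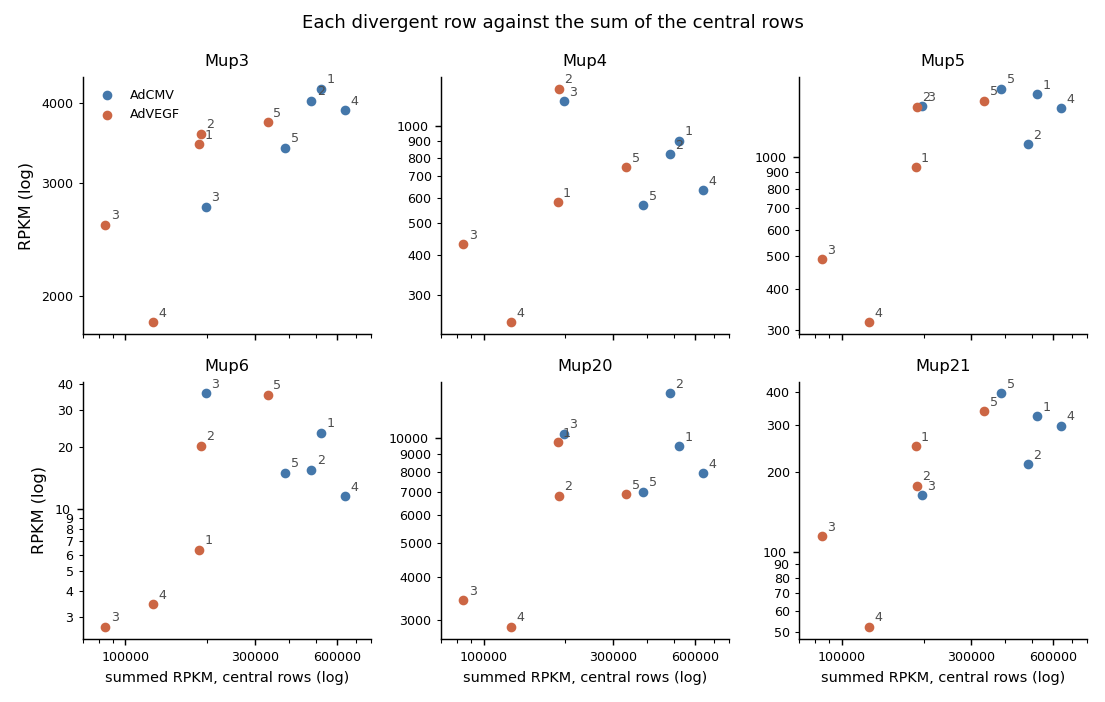
RPKM of each divergent row against the summed RPKM of the 15 central rows (both axes logarithmic), 1 point per mouse, numbered by replicate. AdCMV mouse 3 lies at the left of its group with Mup4 and Mup6 values that are the highest of the group, and AdVEGF mice 3 and 4 lie at the lower left.

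Among themselves the members correlated within groups with r between 0.45 (Mup4 with Mup21) and 0.86 (Mup3 with Mup21) over the 10 mice. Mup5 with Mup21 (0.85) and Mup5 with Mup6 (0.83) followed. These values are given as a description, since all points share their library and its scaling.

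The genes outside the family that followed each member most closely within groups, among 12034 genes with at least 20 reads per mouse on average, are likewise a description over 10 mice. For Mup20 they were Cyp4v3 (r = 0.89), Car3 (0.86) and Cyp4a12a (0.86), of which the last is a male-biased fatty acid hydroxylase. Mup3 went with Rnf125 (0.95), Alas2 (0.94), which makes heme precursors in red cells, and G6pc (0.92), the last enzyme of glucose release. Mup21 shared Alas2 (0.96) and had Slc25a25 (0.92) and Inmt (0.91) next. The nearest genes of Mup5 were Tymp (0.93), Aox3 (0.92) and Cyp2f2 (0.90). Mup4 and Mup6 shared Gm4952 (0.94 and 0.92) and Gm20753 (0.91 and 0.92), followed by 1700010I02Rik (0.90) for Mup4 and Snx29 (0.86) for Mup6. Of these, Cyp4v3 (log2 fold change -1.06, limma adjusted p = 0.00315), Car3 (-1.89, adjusted p = 0.0065), Cyp4a12a (-2.90, adjusted p = 0.00107) and Inmt (-1.05, adjusted p = 0.00169) were lower in the AdVEGF group, and the others were not called. From 0 (Mup20) to 6 (Mup3) genes per member had an r over 0.9. As the highest of 12034 values over 10 mice, such r can also arise between unrelated genes.

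Of the genes that carry the growth hormone signal in liver, 1 of 9 tested was called higher and 0 lower. Of all genes tested, 13% were called higher and 1.54% lower. Socs2, a growth hormone induced inhibitor of the receptor, rose from 8.60 ± 2.41 to 29.7 ± 13.2 RPKM (SD, n = 5 each), 1.70 ± 0.30 (SE) on the log2 scale with an adjusted p = 0.000524 by limma. Igf1, the main endocrine product of growth hormone in liver, measured 63.2 ± 9.19 and 105 ± 21.1 RPKM. Its difference of 0.73 ± 0.20 (SE) on the log2 scale was under the fold threshold (adjusted p = 0.0133, limma). With median-ratio scaling it was 0.33 (adjusted p = 0.189, limma), whereas Socs2 was still called (1.30, adjusted p = 0.0079, limma). The list's median log2 fold change was 0.08, beside 0.38 for all genes tested.

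Among 11 transcription factors and hormone receptors of hepatocytes, 0 were called higher and 0 lower (limma), and their median log2 fold change was 0.17. Foxa3, named because it came nearest to the threshold, differed by 0.98 ± 0.18 (SE) on the log2 scale (adjusted p = 0.000723, limma).

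Other male-biased liver genes gave 3 of 11 called lower and 0 higher, with a median log2 fold change of -0.75. The 3 were Cyp4a12a (from 55.1 ± 10.3 to 11.4 ± 9.59 RPKM), Cyp4a12b (-2.48 ± 0.51 SE on the log2 scale, adjusted p = 0.00191 by limma) and Elovl3, a fatty acid elongase (-2.43 ± 0.79 SE, adjusted p = 0.033 by limma). Cyp4a12a and Cyp4a12b are close copies that may share reads. With median-ratio scaling 6 of 11 were called lower. Cyp2d9, another male-biased enzyme, measured 207 ± 41.2 and 236 ± 61.7 RPKM.

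Female-biased genes were also lower in part, 3 of 11 tested with 0 higher and a median log2 fold change of -0.87. Cyp2a4 fell from 157 ± 225 to 13.3 ± 16.3 RPKM (-3.37 ± 0.73 SE on the log2 scale, adjusted p = 0.00288 by limma), Cyp2b9 by 1.98 on the log2 scale (limma adjusted p = 0.00953) and Cyp3a44 by 1.21 (adjusted p = 0.0389). Without AdCMV mouse 3 the AdCMV mean of Cyp2a4 was 56.5 ± 27.4 RPKM (SD, n = 4), with a difference of -2.68 on the log2 scale (limma adjusted p = 0.00493), and Cyp3a44 was no longer called (-0.96, adjusted p = 0.0718). All 3 belong to families with close copies. Cyp2b9 lay near the level that 3 reads give on 1 kb, at 0.398 to 2.04 RPKM with AdCMV and 0 to 0.287 RPKM with AdVEGF. With median-ratio scaling 7 were called lower. Both lists were drawn up with the lower Mup values known, and their direction is not independent evidence.

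Of the 10 other lipocalins that the liver expresses, 0 were called in either direction (limma). Their median log2 fold change, 0.34, was close to that of all genes. Without AdVEGF mouse 4, 1 was called lower. Lcn2 measured 28.4 to 68.0 RPKM with AdCMV and, leaving out that mouse, 9.06 to 36.8 RPKM with AdVEGF. Rbp4, the carrier of retinol, measured 847 ± 108 and 1135 ± 160 RPKM, and Ambp, which lies on the same chromosome within 1000000 bases of the outermost Mup row, 898 ± 99.6 and 1202 ± 310 RPKM.

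Within 1000000 bases of the outermost Mup rows, 22 genes were tested, with a median log2 fold change of 0.45. Of the 22, 4 were called higher and 0 lower, beside 13% and 1.54% of all genes tested. With median-ratio scaling 1 was called higher. Rgs3, a regulator of G-protein signalling, rose from 0.272 ± 0.130 to 3.38 ± 0.829 RPKM (log2 fold change 3.27, limma adjusted p = 1.41e-06). Ugcg (1.25), Gng10 (1.13) and Slc31a2 (1.10) also passed on the deposited scale, with adjusted p of 0.000611, 0.00441 and 0.0051, and not with median-ratio scaling, where their log2 fold changes were 0.85, 0.74 and 0.71.

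The cell type markers moved with the groups as follows. Endothelial markers (Pecam1, Cdh5, Kdr and Tek) together gave 10.8 to 24.9 RPKM with AdCMV and 87.7 to 112 RPKM with AdVEGF, with 4 of 4 called higher, and stellate cell markers 9.39 to 20.1 and 29.6 to 50.8 RPKM, with 4 of 4 called higher. Hepatocyte markers, whose cells make the liver's Mups, together gave 15548 to 19874 RPKM with AdCMV and 28251 to 35684 RPKM with AdVEGF, with 2 of 5 called higher (Alb and Apoa1) on the deposited scale and 0 of 5 with median-ratio scaling. Of the Kupffer cell markers 1 of 4 was called higher (50.1 to 119 RPKM summed with AdCMV, 111 to 161 RPKM with AdVEGF), of the cholangiocyte markers 0 of 3 (5.53 to 7.91 and 7.60 to 16.1 RPKM), and of the lymphocyte markers 2 of 4 were lower and 1 higher (2.32 to 9.75 and 1.62 to 4.77 RPKM). The part of these cells in the Mup values was not tested.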

How the data were processed

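Liver RNA of 10 mice (5 AdCMV, 5 AdVEGF, grouped by their labels) was measured by RNA-Seq. According to the study's methods and the submitters' processing notes, which name TopHat, HOMER and mm9, the authors scaled every library to the same total of uniquely mapped tags and deposited RPKM of 24016 transcripts per mouse. They also deposited their own log2 fold changes and FDR values, which were not used. Reads behind each RPKM value were recovered, with at least 99.9878% of values whole within 0.1 read. The 5 rows with no symbol, at most 0.00534% of reads, were left out.

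Limma 3.58.1 (R 4.3.3, trended eBayes) was run on log2(RPKM + 0.1) for genes whose mean exceeded 0.5 RPKM in either group, with Benjamini-Hochberg adjustment over all genes. This scale understates changes of low genes. Correlations used exact permutation tests (Python 3.11.15, numpy 2.4.6). Both tests were tried on simulated data. Coding identity came from global alignment (Biopython 1.88) with overhangs left out.

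Members and lists were chosen with earlier results of these data known. The text names all members, the highest and lowest central row, called list genes and neighbours, and for each member the 3 most similar genes. Foxa3, Igf1, Cyp2d9, Rbp4, Ambp, Lcn2 and Orm2 were named after their values were seen, and 1 gene of the factor list is not reported here. The alternatives were other scalings, pseudocounts of 1 and 0.01, no filter, voom, a replicate block and leaving out mice. The replicates are labelled as biological. Limits from depth cover counting error only.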

Additional observations from a re-analysis of the deposited data

Results flagged for a closer look

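In groups of 5 mice, a value was singled out where its gap to the nearest other mouse exceeded 0.71 of the group's range (Dixon's criterion). Chance singles out about 1 group in 20, and 10 values stood out in 68 groups. Mup4 made up 0.561% and Mup6 0.0170% of the summed Mup RPKM in AdCMV mouse 3, each the highest of the group by a wide gap. The same mouse stood out with the highest Cyp2a4 (557 RPKM), Cyp2b9 (2.04 RPKM) and Slc31a2 (5.44 RPKM) of its group. In AdVEGF mouse 4, Lcn2 (1599 RPKM), Orm1 (2409 RPKM) and Orm2 (1421 RPKM) were far above the group, and Cyp3a44 (3.60 RPKM) was far below. Cyp2a4 in AdVEGF mouse 3 (41.8 RPKM) was the remaining value. RPKM values were screened on the deposited scale only, and not after median-ratio scaling. On the deposited scale the other genes of AdCMV mouse 3 stand high, with a median-ratio factor of 1.22. The reasons for the values that stood out were not tested.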

How the results depend on the processing

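The 6 members had negative log2 fold changes under every alternative run. Their median was -0.79, -1.19 with median-ratio scaling, -1.13 with library totals without the Mup rows, and -0.98 to -0.45 without 1 mouse. The number of members called, 0, changed to 1 (Mup6) with the replicate block and to 0 to 3 without 1 mouse. Central rows called, 15, changed to 5 with median-ratio scaling, to 0 without the filter and to 0 to 15 without 1 mouse. Genes called higher (1808) and lower (214) were 1055 and 444 with median-ratio scaling and 1120 and 390 with library totals without the Mup rows, and with a pseudocount of 1 954 were higher. With median-ratio scaling and with those totals, respectively, male-biased genes called lower (3) came to 6 and 5, factors called lower (0) to 1 and 1, and neighbours called higher (4) to 1 and 1. Female-biased genes called lower (3) came to 7 with median-ratio scaling. Factors called higher (0) ranged from 0 to 1 and lipocalins called lower (0) from 0 to 1 without 1 mouse. With AdCMV 3 and AdVEGF 4 both left out, an alternative added after the data were seen, 1 female-biased gene was called higher and 1 lipocalin lower. The causes were not tested, beyond the upward shift of other genes that the share of the Mup rows gives. The members' joint share stayed within 3.10% to 4.42% (AdCMV) and 5.45% to 6.43% (AdVEGF) without 1 mouse.

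Whether the replicate numbers pair the mice was not settled. Same-numbered mice correlated at 0.00763 to 0.291 in their deviations, and 3 of 5 AdCMV mice correlated best with their own number. The replicate block called 1 member and 5 female-biased genes lower and moved no other of these counts by over 1.5 times. Reads limit Mup6 most, with 8 reads in its lowest library.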
